A study of Mus musculus with 6 samples.

Results

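The 44 genes described here encode the DNA replication machinery and its S phase partners: the replicative helicase, the factors that license and fire origins, the polymerases and their clamp, the enzymes that make deoxynucleotides, the cyclins and transcription factor of the G1/S transition, and proteins that copy chromatin. They were chosen by name, and all 44 were found among the 13405 genes listed in each of the 6 files. The RNA came from 4T1, an established mouse breast cancer line from the strain Balb/c, labelled tumor cells. There were 3 libraries of ATM KO cells, in which Atm, the kinase gene of the DNA double-strand break response, was targeted, and 3 libraries of vector control cells. No drug treatment or time point is named. The labels do not give the knockout method, whether the cells were a clone or a pool, or whether the libraries of a group were separate cultures, so each p-value rests on differences among these 3 and 3 libraries that could be technical.

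In background terms, replication is prepared in G1, when the origin recognition complex, with Cdc6 and Cdt1, loads the MCM helicase onto DNA. At S phase entry, kinases driven by cyclin E and others recruit Cdc45 and the GINS complex, which turn the loaded MCM ring into a moving helicase. Primase and DNA polymerase alpha start each strand, replication factor C loads the PCNA clamp, and polymerases delta and epsilon extend. Many of these genes are transcribed together by E2F factors once the retinoblastoma proteins release them, so their mRNAs are widely read as a sign of how many cells are near S phase. In RNA from bulk cells, fewer cells in S phase and less mRNA per cell cannot be told apart.

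Promoters are shown because the genes are known for shared E2F control and because most of their mRNAs varied together between libraries. RefSeq windows on GRCm38.p6, which cover 250 bases before to 50 after the start, matched 36 of the 44 genes. These are C57BL/6J sequences, not BALB/c. The E2F-type words TTTCCCGC, TTTGGCGC, TTTCGCGC and TTTGCCGC were searched on both strands, and at least 1 was present for 12 of 36 genes (33.3%), against 4.94% of the 8666 tested genes with a window and 2.60% of all 27025 genes in the table. The same words without their first T, which lie within the longer ones, gave shares of 61.1%, 20.5% and 10.9%. The word CCAAT, known as the NF-Y motif, was present in 66.7%, 43.7% and 41.1%. A match is a string of letters and no evidence of binding, and words in one promoter can overlap. The 160 bases before the start are given 5′ to 3′ for 4 genes whose matches lie there and that overlap no annotated GENCODE exon, with the 8-letter words in capitals. Mcm5 (chr8:75109349-75109508, plus strand), Mcm6 (chr1:128359706-128359865, minus strand) and Cdc6 (chr11:98907991-98908150, plus strand) were all highest in vector control 1 among the controls. Pola1 (chrX:93632156-93632315, minus strand) was lowest there. Starts are RefSeq's: GENCODE M21 starts Cdc6 further upstream, at 98907801, so that its stretch lies within the GENCODE gene, between exons.
Mcm5: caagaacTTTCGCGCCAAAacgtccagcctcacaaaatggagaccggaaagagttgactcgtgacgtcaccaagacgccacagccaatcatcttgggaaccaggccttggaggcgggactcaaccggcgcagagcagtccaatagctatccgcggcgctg
Mcm6: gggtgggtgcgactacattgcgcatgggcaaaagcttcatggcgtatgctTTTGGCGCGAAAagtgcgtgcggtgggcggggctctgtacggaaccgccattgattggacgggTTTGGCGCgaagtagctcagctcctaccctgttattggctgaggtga
Cdc6: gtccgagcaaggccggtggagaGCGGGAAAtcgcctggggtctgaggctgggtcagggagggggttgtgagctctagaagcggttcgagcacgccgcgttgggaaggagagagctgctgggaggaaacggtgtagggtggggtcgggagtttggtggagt
Pola1: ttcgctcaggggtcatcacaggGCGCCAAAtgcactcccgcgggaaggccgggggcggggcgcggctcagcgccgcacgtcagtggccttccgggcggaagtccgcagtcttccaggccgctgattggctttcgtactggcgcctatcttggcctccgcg
The 8-letter words stood in the windows of 12 of the genes. Of these, Mcm3, Mcm5, Mcm6, Orc1, Rfc3, Gins3 and Cdc6 ran high in vector control 1 against the other controls. Mcm7, Cdt1, Pola1, Pold1 and Uhrf1 ran low there, Cdt1 only slightly, at 4169 against 4317 and 4281. Of all 44 genes, 35 exceeded both other controls in vector control 1 and 8 lay below both. The part of E2F in the library order was not tested.

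Values are normalized read counts: the reads counted on a gene, divided by the authors by 1 factor per library. Between 22494919 and 32341508 reads per library fell on the listed genes, and the lowest count of any of the 44 genes in any library was 124 reads, so counting error was small beside the differences between libraries. Vector control 1 stood apart: across genes its log2 values correlated with those of vector controls 2 and 3 at 0.935 each, against 0.995 between vector controls 2 and 3. Vector controls 2 and 3 lay within 10% of each other for 43 of the 44 genes, yet differed beyond counting noise (chi-square per gene of 15.7, against 73.0 to 323.0 for the other pairs within a group), and were kept as separate samples. Atm itself stood at 1959, 2219.8 and 1591 in ATM KO 1 to 3 and 1978, 1613 and 1519 in vector controls 1 to 3, so its mRNA level does not check the labels. Of 8 mammary epithelial markers 7 were listed, with summed values between 113329 and 157192 in ATM KO and between 89239 and 125777 in vector control libraries. Of 8 leukocyte markers only Csf1r was listed, at 438 to 1119 in ATM KO and 229 to 387 in vector control cells. Of 6 fibroblast markers 3 were listed, with sums of 344 to 754 in ATM KO and 146 to 547 in vector control cells. Of 5 endothelial markers only Cdh5 was listed, at 0 to 6.84 in ATM KO and 2.10 to 11.7 in vector control cells. Markers not listed were not analysed here.

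No replication gene differed between ATM KO and vector control cells beyond the spread between libraries. Each log2 fold change is the ATM KO mean less the vector control mean of log2(value + 1), so those of weakly expressed genes are understated. All 44 passed the filter of a mean value of at least 10, and their log2 fold changes ran from -0.36 for Prim2 to 0.83 for Ccne2, with 29 negative and 15 positive and a median of -0.12. Over the 12149 genes tested, 51.4% were negative and the median was -0.01. Of the 44 genes, 0 passed an adjusted p of 0.05 in limma, where all had an adjusted p of 0.999, and 0 passed edgeR or DESeq2. The share of all tested genes called was 0% by limma, 0% by edgeR and 0.691% by DESeq2. Even unadjusted, 0 of the 44 had a p under 0.05 by any of the 3 tools, against 4.16% of tested genes by limma, 4.30% by edgeR and 5.90% by DESeq2, and the lowest was 0.0956 in limma, for Pola1. These tests do not show that the levels were equal. The 95% intervals of the differences lay within a 2-fold change in either direction for 29 genes and reached it for 15.

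**Figure D1:**
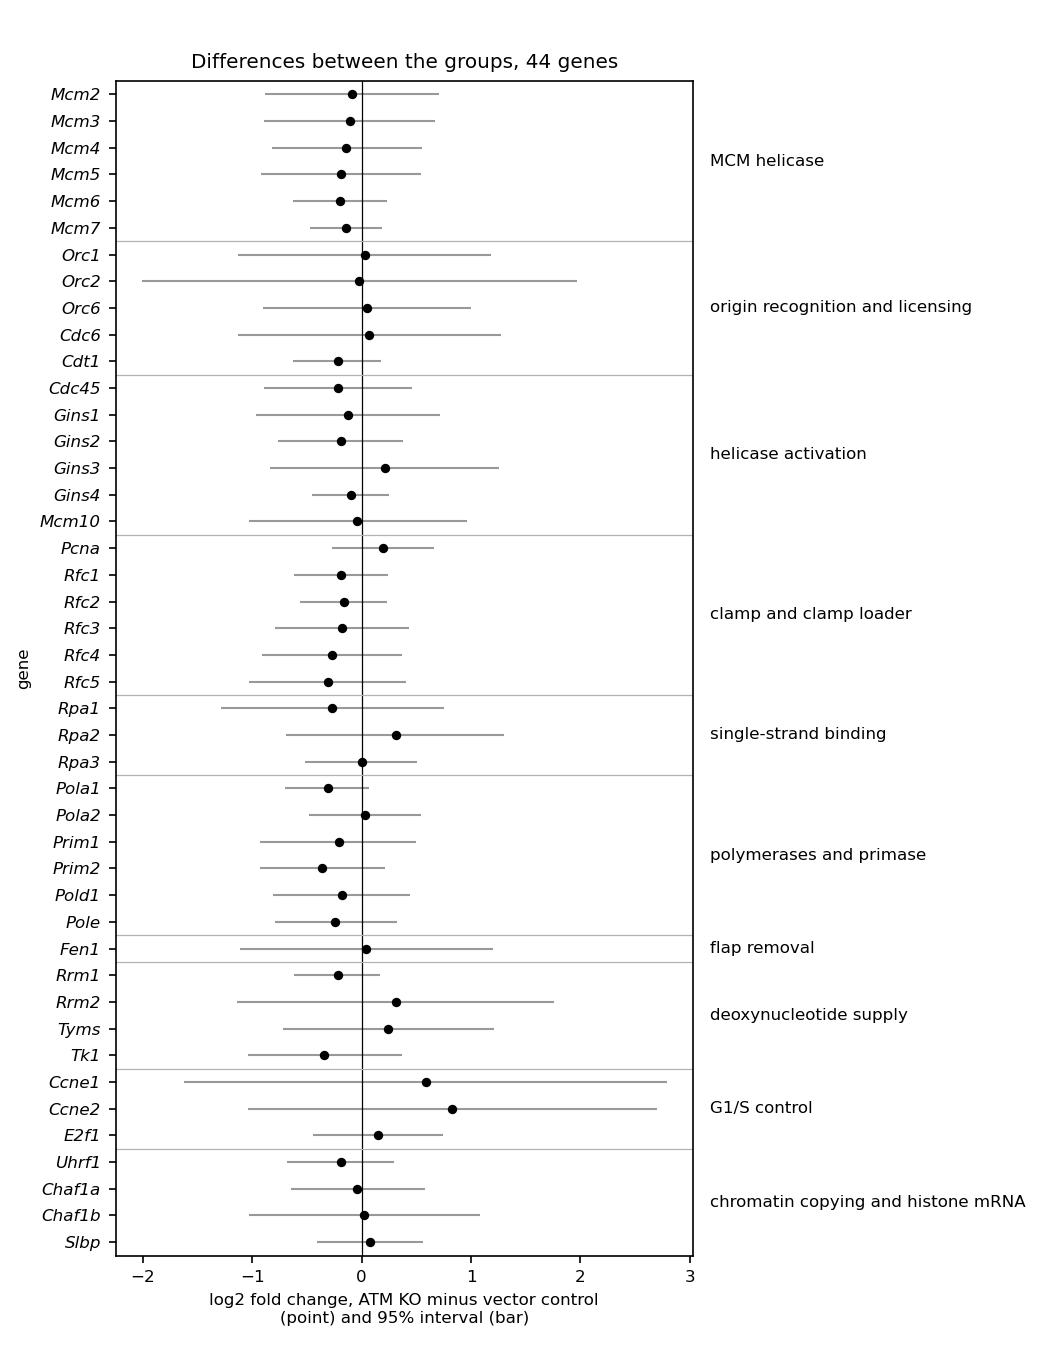
Log2 fold change of each of the 44 genes, ATM KO minus vector control (x axis, points) with its 95% limma interval (bars), by role. Every interval includes 0, and those of Orc2, Ccne1, Ccne2 and Rrm2 are the widest.

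What varied was the library. The median deviation of the 44 genes from their own means, on the log2 scale, was 0.09, 0.29 and -0.49 in ATM KO 1 to 3 and 0.34, -0.12 and -0.10 in vector controls 1 to 3. The median over all tested genes stayed between -0.01 and 0.02, but scaling by 1 factor per library can itself hold that median near 0. Deviations from the group mean over all tested genes also linked libraries of different groups. Those of vector control 1 correlated at 0.61 with ATM KO 2, -0.55 with ATM KO 3 and -0.02 with ATM KO 1. A shared library pattern was thus not confined to the 44 genes. As a share of all normalized counts, the 44 genes made up 0.534%, 0.609% and 0.351% in ATM KO 1 to 3 and 0.641%, 0.459% and 0.470% in vector controls 1 to 3. Each group thus held a high and a low library, and the groups overlapped. ATM KO 3 was the lowest of the 6 libraries for 34 of the 44 genes, against 25.8% of all tested genes, and vector control 1 the highest for 25, against 31.9%. In 34 genes ATM KO 2 exceeded ATM KO 1 and ATM KO 1 exceeded ATM KO 3, against 3572 of the 12149 tested genes. ATM KO 3 also had the fewest reads (22494919), and the part of depth in this order was not tested. The highest library was at least 2-fold above the lowest for 22 of the 44 genes, against 47.5% of tested genes, so what the 44 shared was the order of the libraries more than the size of the swing. The 7 listed mammary epithelial markers ran in another order, with median deviations of 0.31, -0.22 and 0.44 in ATM KO 1 to 3 and -0.60, 0.00 and -0.02 in vector controls 1 to 3. Csf1r stood at 968, 438 and 1119 in ATM KO and 229, 378 and 387 in vector control libraries. The part of cell makeup in the library order was not tested.

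**Figure D2:**
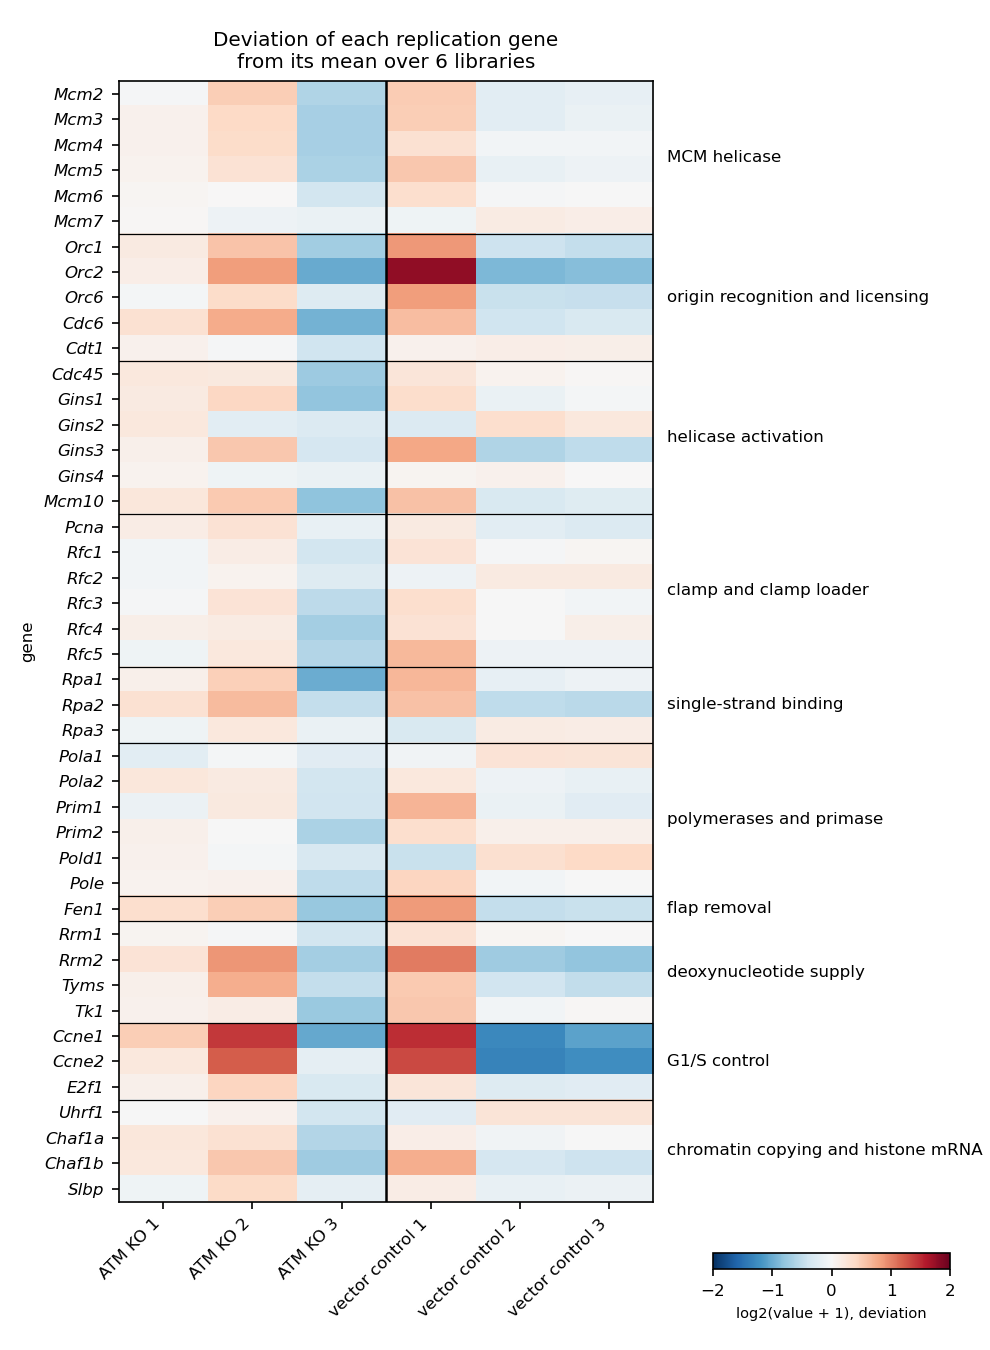
Deviation of each gene (rows, by role) from its own mean over the 6 libraries (columns) on the log2(value + 1) scale, red above and blue below the mean. Vector control 1 and ATM KO 2 are red for most genes and ATM KO 3 is blue, with median deviations of 0.34, 0.29 and -0.49.

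The helicase genes differed little between the groups and mostly shared a library order, which Mcm7 did not. MCM proteins form the ring that unwinds DNA ahead of the fork. All 6 log2 fold changes were negative but small, between -0.20 and -0.09, with a median of -0.14. Mcm6 (ENSMUSG00000026355, chromosome 1, 128331590 to 128359664, minus strand, GRCm38) stood at 10538, 10277 and 7944 in ATM KO 1 to 3 and 12876, 9983 and 10195 in vector controls 1 to 3. The ATM KO libraries 1 and 2 lay between the controls and only ATM KO 3 below them (log2 -0.20, SE 0.18, 95% interval -0.63 to 0.23). Mcm2 stood at 5689, 8145 and 3823 in ATM KO and 8184, 5008 and 5159 in vector control libraries. Mcm3, Mcm4 and Mcm5 had that pattern too, high in vector control 1 and ATM KO 2 and lowest in ATM KO 3, and the ratio of ATM KO 2 to ATM KO 3 was 2.13 for Mcm2, 2.09 for Mcm3, 2.05 for Mcm4 and 1.89 for Mcm5. Mcm7 did not share it: at 5913, 5413 and 5319 in ATM KO and 5486, 6513 and 6359 in vector control libraries, it was lower in vector control 1 than in the other controls, and its highest value was only 1.22 times its lowest.

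Among the origin recognition and licensing genes, Orc2 had the widest swing of the 44, at 6.89-fold, barely above that of Ccne1 at 6.88-fold. Orc2, a core subunit of the origin recognition complex (ENSMUSG00000026037, chromosome 1, 58462771 to 58505109, minus strand), stood at 1628, 2654 and 737 in ATM KO and 5079, 799 and 824 in vector control libraries. Vector control 1 was 6.36 times vector control 2, and the group difference was within that spread (log2 -0.02, SE 0.83, 95% interval -2.01 to 1.97). On the recovered reads the log2 fold change of Orc2 was -0.41 by edgeR and -0.42 by DESeq2, the farthest from 0 of the 44 genes by those tools, and it was 0.86 in limma without vector control 1. Orc1, an ATPase subunit, stood at 835, 1098 and 454 in ATM KO and 1347, 552 and 531 in vector control libraries, while Orc6, the smallest subunit, had 1311, 1731 and 1117 in ATM KO and 2393, 987 and 972 in vector control libraries. Both had vector control 1 highest and ATM KO 2 next. Cdc6, the loader ATPase, stood at 1296, 1764 and 541 in ATM KO and 1601, 791 and 848 in vector control libraries. Cdt1, the partner of Cdc6 that is destroyed in S phase, stood at 4178, 3886 and 2974 in ATM KO and at a nearly flat 4169, 4317 and 4281 in vector control libraries (log2 -0.22, SE 0.17, 95% interval -0.63 to 0.18). ATM KO 1 lay just above vector control 1, so the groups overlapped. The licensing genes thus split into 4 with a swing of at least 2-fold and Cdt1 with one of 1.45-fold.

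Genes that activate the loaded helicase varied unequally within a single complex. The GINS proteins form a complex with 1 copy of each, yet their mRNAs did not move together between libraries. Gins1 stood at 617, 731 and 317 in ATM KO and 698, 500.1 and 532 in vector control libraries, and Gins3 at 527, 713 and 388 in ATM KO and 841, 323 and 345 in vector control libraries. Gins2 ran the other way among the controls, at 1222, 915 and 873 in ATM KO and 879, 1332 and 1231 in vector control libraries. Its lowest library was still ATM KO 3. Gins4 had the narrowest range of the 44 genes, at 1482, 1325 and 1282 in ATM KO and 1463, 1488 and 1422 in vector control libraries, the highest 1.16 times the lowest (log2 -0.10, SE 0.15). Cdc45, which bridges GINS and the ring, stood at 2443, 2409.8 and 1275 in ATM KO and 2491, 2211 and 2149.7 in vector control libraries. ATM KO 1 and 2 lay within the control range and ATM KO 3 well under it (log2 -0.22, SE 0.28, 95% interval -0.89 to 0.46). Mcm10, a helicase activator outside the ring, ranged from 689.8 in ATM KO 3 to 1817 in vector control 1.

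**Figure D3:**
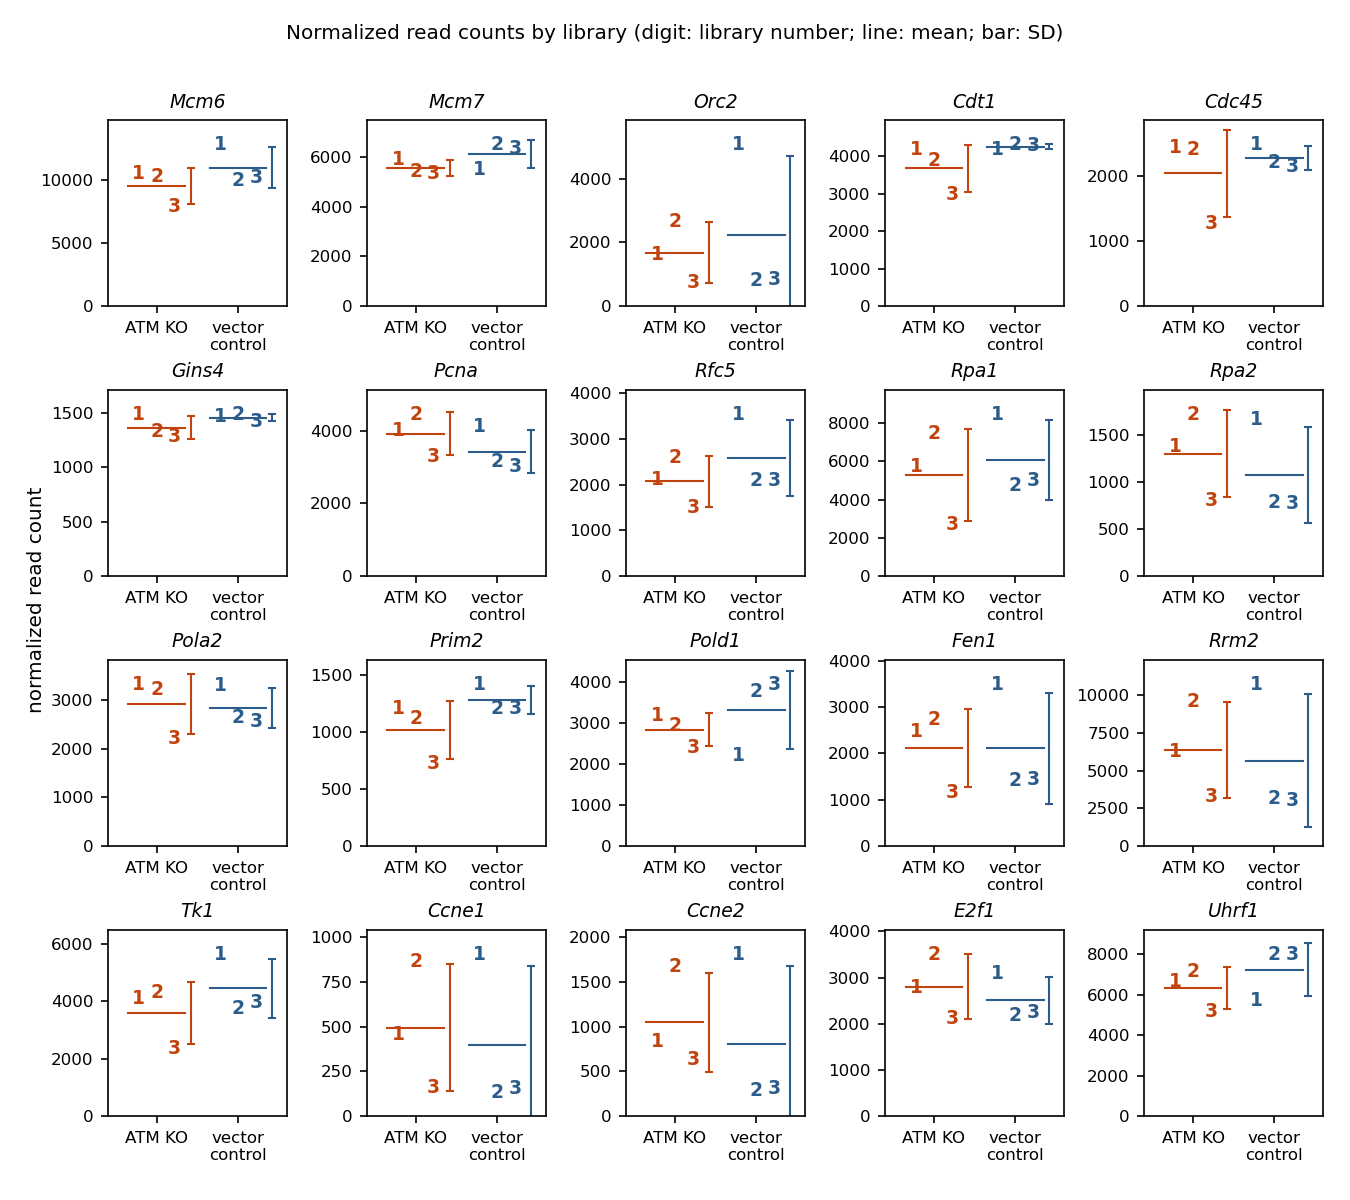
Normalized read counts (y axis, from 0) of 20 of the genes in ATM KO and vector control libraries. Digits are library numbers, lines group means and bars SD, cut at 0 for Orc2, Ccne1 and Ccne2. The groups overlap in every panel but Prim2, where ATM KO 1 at 1207 nearly touches vector control 2 at 1208.

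The clamp and its loader were among the steadier genes. Pcna, the sliding clamp that tethers polymerases, stood at 4011, 4451 and 3280.1 in ATM KO and 4111, 3140.1 and 3017 in vector control libraries (log2 0.20, SE 0.19, 95% interval -0.27 to 0.66). All ATM KO libraries were above vector controls 2 and 3, but vector control 1 lay above ATM KO 1 and 3. The 5 loader genes all had negative log2 fold changes, of -0.16 for Rfc2, -0.18 for Rfc3, -0.19 for the large subunit Rfc1, -0.27 for Rfc4 and -0.31 for Rfc5. Rfc5 stood at 2113, 2599.7 and 1497 in ATM KO and 3540, 2100.2 and 2098 in vector control libraries (SE 0.30, 95% interval -1.03 to 0.41). Vector control 1 was its highest library and ATM KO 3 its lowest. Rfc2 had 2273, 2482 and 1968 in ATM KO and 2198, 2660.3 and 2669 in vector control libraries, with vector control 1 the lowest of the controls. Rfc1 ranged from 5233 to 7469 in ATM KO and 6677 to 8156 in vector control libraries, Rfc3 from 729 to 1271 in ATM KO and 1009.7 to 1326 in vector control libraries, and Rfc4 from 759 to 1359 in ATM KO and 1211 to 1491 in vector control libraries.

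The 3 subunits of RPA, the protein that coats single-stranded DNA, differed from each other in how they varied. Rpa1, the large subunit, stood at 5749, 7433 and 2681 in ATM KO and 8458, 4753 and 4984 in vector control libraries (log2 -0.27, SE 0.42, 95% interval -1.29 to 0.75). Rpa2, the subunit phosphorylated by the damage kinases, stood at 1378, 1720.1 and 804 in ATM KO and 1666, 784 and 770.1 in vector control libraries (log2 0.31, SE 0.41, 95% interval -0.69 to 1.30). All 3 ATM KO values of Rpa2 exceeded vector controls 2 and 3, although ATM KO 3 did so by little, and vector control 1 was above ATM KO 1 and 3. Rpa3, the smallest subunit, kept within 1.44-fold, at 698, 856 and 674 in ATM KO and 596, 825 and 824 in vector control libraries.

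Polymerase and primase genes gave the only gene of the 44 whose groups did not overlap. Prim2, the large primase subunit (ENSMUSG00000026134, chromosome 1, 33453810 to 33669795, minus strand), stood at 1207, 1123 and 726 in ATM KO and 1419.7, 1208 and 1209 in vector control libraries (log2 -0.36, SE 0.24, 95% interval -0.93 to 0.21, limma adjusted p = 0.999). The gap between ATM KO 1 and vector control 2 was minute, and it closed when libraries were scaled to the total of the listed genes. In all, 1 of 44 genes did not overlap, against 11.2% of all tested genes: 1 with ATM KO lower, against 5.48%, and 0 with ATM KO higher, against 5.70%. Pola1, the catalytic subunit of polymerase alpha, stood at 2366, 2689 and 2362 in ATM KO and 2618, 3343 and 3296 in vector control libraries (log2 -0.31, SE 0.16, 95% interval -0.70 to 0.07), overlapping through vector control 1. Its partner Pola2 had no such difference, at 3323, 3219 and 2215 in ATM KO and 3299, 2645 and 2551 in vector control libraries (log2 0.03, SE 0.21). Pold1, the catalytic subunit of polymerase delta, was lowest of all in vector control 1, at 3168, 2932 and 2401 in ATM KO and 2214, 3752 and 3937 in vector control libraries. Pole, that of polymerase epsilon, stood at 4669, 4678 and 3097 in ATM KO and 5937, 4241 and 4394 in vector control libraries, and Prim1, the catalytic primase subunit, at 1532, 1910 and 1276 in ATM KO and 2686, 1517 and 1429.9 in vector control libraries. The catalytic subunits of delta and epsilon therefore ran in opposite directions in vector control 1. Fen1, the nuclease that trims Okazaki fragment flaps, stood at 2466, 2728 and 1149 in ATM KO and 3498, 1407 and 1435 in vector control libraries, with means of 2114 ± 846 in ATM KO and 2113 ± 1199 in vector control cells (SD, n = 3 each, log2 0.04, SE 0.48).

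Among the deoxynucleotide genes, the subunits of ribonucleotide reductase behaved differently. Rrm2, the small subunit whose supply rises in S phase (ENSMUSG00000020649, chromosome 12, 24708241 to 24714146, plus strand), stood at 6291, 9602 and 3269.8 in ATM KO and 10743, 3179 and 3026 in vector control libraries (log2 0.31, SE 0.60, 95% interval -1.14 to 1.76). Rrm1, the large subunit, stood at 10042, 9559.5 and 7549 in ATM KO and 11816, 9968 and 9801 in vector control libraries (log2 -0.22, SE 0.16). Across the 6 libraries Rrm2 thus spanned 3.55-fold and Rrm1 1.57-fold. Tk1, the cytosolic thymidine kinase, stood at 4114, 4312 and 2338 in ATM KO and 5648, 3757 and 3955 in vector control libraries (log2 -0.34, SE 0.29, 95% interval -1.04 to 0.37). Tyms, thymidylate synthase, stood at 1362, 2094 and 909 in ATM KO and 1819.6, 965 and 893 in vector control libraries. ATM KO 1 and 2 lay above vector controls 2 and 3 for Tyms and Tk1, and vector control 1 overlapped the ATM KO range in Tyms and exceeded it in Tk1.

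The E-type cyclins had the highest log2 fold changes of the 44 genes in limma, within wide spreads. Cyclin E drives CDK2 at S phase entry. Ccne2 (ENSMUSG00000028212, chromosome 4, 11191351 to 11204779, plus strand) stood at 836, 1673 and 635 in ATM KO and 1811, 285 and 305 in vector control libraries. Every ATM KO library was above vector controls 2 and 3 and below vector control 1, which gave a log2 fold change of 0.83 (SE 0.78, 95% interval -1.04 to 2.70). On the recovered reads it was 0.39 by edgeR and by DESeq2, and with 1 library left out it ran from 0.37 without vector control 2 to 1.70 without vector control 1. Ccne1 (ENSMUSG00000002068, chromosome 7, 38097984 to 38107534, minus strand) stood at 456, 864 and 159 in ATM KO and 905, 132 and 154 in vector control libraries (log2 0.59, SE 0.92, 95% interval -1.62 to 2.79). The value was 0.32 by edgeR and 0.31 by DESeq2, and with 1 library left out it ran from 0.03 without ATM KO 2 to 1.47 without vector control 1. In Ccne1, ATM KO 3 was level with vector controls 2 and 3, and ATM KO 2 with vector control 1. E2f1, an activator of the S phase program, spanned a narrower range, at 2793, 3508 and 2117 in ATM KO and 3098, 2186 and 2241 in vector control libraries (log2 0.15, SE 0.24, 95% interval -0.44 to 0.74).

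Of the genes for chromatin copying, Uhrf1 went against the others in vector control 1, while ATM KO 3 was the lowest library for all 4. Uhrf1, which guides maintenance DNA methylation, stood at 6663, 7138 and 5169 in ATM KO and 5724, 7981 and 8009 in vector control libraries (log2 -0.19, SE 0.20, 95% interval -0.68 to 0.30). Chaf1b, a subunit of the histone chaperone CAF-1, stood at 1499, 1879 and 789.6 in ATM KO and 2147, 1023 and 969 in vector control libraries, and its partner Chaf1a at 5191, 5499.7 and 2973 in ATM KO and 4858, 4257 and 4431 in vector control libraries. Slbp, which binds the stem-loop of histone mRNAs, stood at 3015, 4206 and 2827 in ATM KO and 3575, 2885 and 2959 in vector control libraries. Chaf1b spanned 2.72-fold and Chaf1a 1.85-fold, so the CAF-1 subunits differed in range as the GINS and ribonucleotide reductase subunits did.

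In vector control 1, 35 of the 44 genes exceeded both other controls, 8 lay below both (Mcm7, Cdt1, Gins2, Rfc2, Rpa3, Pola1, Pold1 and Uhrf1) and 1, Gins4, lay between. Over all tested genes 47.1% exceeded both. In 30 of the 35, ATM KO 2 was also the highest ATM KO library, against 3767 of 5724 tested genes. In 0 of the 8 was ATM KO 2 the lowest, against 3963 of the 5931 tested genes below both. Without vector control 1, the groups did not overlap for 7 genes with ATM KO higher (Orc6, Gins3, Pcna, Rpa2, Rrm2, Ccne1 and Ccne2), against 19.6% of tested genes, and for 8 with ATM KO lower (Mcm7, Cdt1, Gins2, Rfc2, Pola1, Prim2, Pold1 and Uhrf1), against 21.8%. With ATM KO 2 left out as well, 7 did not overlap with ATM KO higher (26.7% of tested genes) and 10 with ATM KO lower (27.2%). With only ATM KO 3 left out, the counts were 1, Chaf1a, with ATM KO higher (9.09%) and 1, Prim2, with ATM KO lower (9.42%). None of these shares stood above the background, and 0 of the 44 genes passed limma in any of these fits. Leaving out only vector control 1 put the median of the 44 log2 fold changes at 0.02.

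Per kb of transcript, a scale that allows genes to be compared, Mcm6, Tk1 and Rrm2 stood highest of the 44 genes by mean level over all 6 libraries, and Gins3, Ccne1 and Mcm10 lowest. Levels are normalized read counts per kb of the longest APPRIS principal transcript in GENCODE M21. They depend on the length of that transcript, and whether the cells use it was not tested. Mcm6 had the highest level, at 3294 ± 491 in ATM KO and 3786 ± 554 in vector control cells (SD, n = 3 each), and the other MCM genes, from 1746 ± 643 for Mcm2 to 2367 ± 819 for Mcm3 in ATM KO cells, overlapped each other within their SDs. Rrm2 had 2913 ± 1444 in ATM KO and 2576 ± 2012 in vector control cells, Tk1 2492 ± 755 in ATM KO and 3092 ± 722 in vector control cells, and Pcna 2578 ± 389.7 in ATM KO and 2255 ± 395 in vector control cells. Roles sorted by level in part. By mean over all libraries, the MCM helicase genes, from 1780.3 for Mcm2 to 3540.2 for Mcm6, exceeded every helicase activation, polymerase and primase gene. The highest of those was Pola2, at 1188. Other roles were mixed, since Tyms, Orc6 and Cdt1 stood apart from the other genes of their roles. Orc1 was at 264 ± 107 in ATM KO and 269 ± 154 in vector control cells, Mcm10 at 262 ± 109 in ATM KO and 261 ± 97.2 in vector control cells, and Gins3 at 215 ± 64.8 in ATM KO and 199.6 ± 116 in vector control cells. Within GINS, Gins4 had 1010.5 ± 77.8 in ATM KO and 1080.3 ± 24.8 in vector control cells, beyond the spread of Gins2 at 257 ± 48.8 in ATM KO and 294 ± 61.0 in vector control cells. The lengths used were 1.35 kb for Gins4 and 3.90 kb for Gins2. Before division by length the means were closer, at 1363 and 1457 for Gins4 and 1003 and 1147 for Gins2, ATM KO first.

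**Figure D4:**
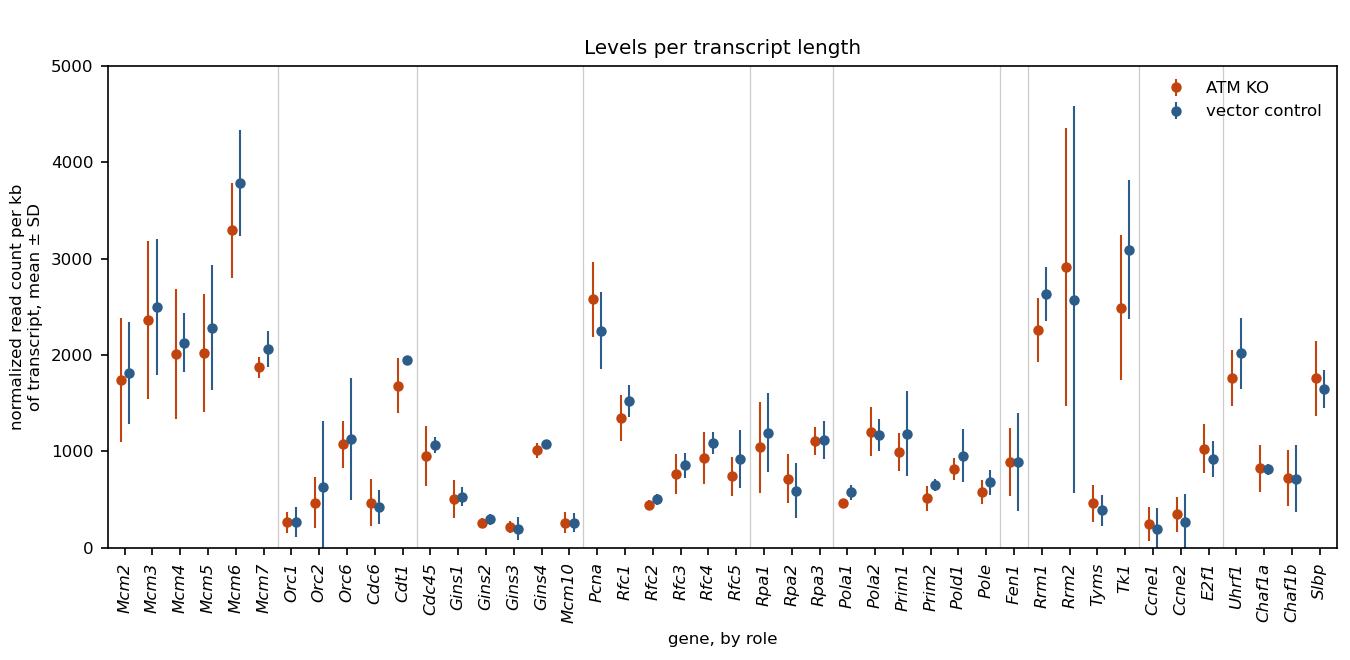
Mean normalized read count per kb of transcript (y axis, from 0) of the 44 genes in ATM KO and vector control cells, by role, with SD over 3 libraries. Mcm6 is highest at 3294 and 3786, and the control bars of Orc2, Ccne1 and Ccne2 are cut at 0.

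Other genes of the pathway, listed by role, gave no call either. Of 30 further replisome and fork genes, 0 passed any of the 3 tools, 23 log2 fold changes were negative and the median was -0.10. Pold2, an accessory subunit of polymerase delta, stood at 2214, 2155 and 1134 in ATM KO and 3175, 2555 and 2491 in vector control libraries (log2 -0.63, SE 0.29, limma adjusted p = 0.999), and Pif1, a helicase of lagging strand and telomeric DNA, at 252, 186 and 110.1 in ATM KO and 265, 271 and 256 in vector control libraries (log2 -0.61, SE 0.34). Every ATM KO library was below every control for 5 of the 30, these included, against 5.48% of all tested genes, and above them for 1, against 5.70%. Of 16 origin firing and licensing control genes, 12 were negative with a median of -0.13 and 0 passed. The groups did not overlap for 3 of the 16 with ATM KO lower, against 5.48% of tested genes, and for 1 with ATM KO higher, against 5.70%. Ccna2, cyclin A, which acts in S phase and G2, stood at 12391, 13359 and 10832 in ATM KO and 15670.1, 16738 and 16533 in vector control libraries, without overlap (log2 -0.42, SE 0.13, 95% interval -0.74 to -0.10, limma adjusted p = 0.999). Cul4b, a scaffold of the ligase that degrades Cdt1, ran the other way without overlap, at 6287, 7378 and 7053 in ATM KO and 5807, 5056 and 4865 in vector control libraries (log2 0.40, SE 0.14, limma adjusted p = 0.999). Of 20 further nucleotide supply genes 15 were negative with a median of -0.11, and of 15 chromatin copying genes 9, with a median of -0.08. Among these, Rbbp4, a histone-binding subunit of CAF-1 and other complexes, was higher in every ATM KO library, at 14921, 15266 and 17639 in ATM KO and 14746, 13604 and 13427 in vector control libraries (log2 0.19, SE 0.13, limma adjusted p = 0.999). It was the only 1 of the 15 without overlap, against 5.70% of tested genes with ATM KO higher. Cad, which starts pyrimidine synthesis, ranged from 4454 in ATM KO 3 to 20623 in vector control 1, and Paics, of purine synthesis, from 14585 in ATM KO 2 to 19020.4 in vector control 2. The MCM relatives Mcm8 and Mcm9, known for roles in DNA repair, had log2 fold changes of -0.13 and 0.01.

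The library pattern of the 44 genes was met in part in these lists. The 20 other nucleotide genes had median deviations of 0.02, 0.63 and -0.81 in ATM KO 1 to 3 and 0.76, -0.28 and -0.28 in vector controls 1 to 3. The 16 origin firing and licensing control genes had -0.06, 0.18 and -0.33 in ATM KO 1 to 3 and 0.16, -0.02 and -0.05 in vector controls 1 to 3. Their medians in ATM KO 2 and vector control 1 were thus nearly level. By gene, vector control 1 was the highest library for 6 of the 16 and ATM KO 2 for 3. The 33 mitosis genes had -0.10, -0.07 and -0.20 in ATM KO 1 to 3 and -0.10, 0.29 and 0.29 in vector controls 1 to 3, with a median log2 fold change of -0.27, 33 of 33 negative and 0 called. The groups did not overlap for 5 of the 33, all with ATM KO lower, against 5.48% of all tested genes. Birc5, survivin, stood at 4416, 4653 and 2737 in ATM KO and 4988, 4704 and 4816 in vector control libraries, and Ect2, a cytokinesis factor, at 8286, 8679 and 6513 in ATM KO and 9837, 10394 and 10243 in vector control libraries, both without overlap (log2 -0.34, SE 0.23, and log2 -0.39, SE 0.15, limma adjusted p = 0.999 for each). Vector control 1 was thus high in replication genes and level with the ATM KO libraries in mitosis genes, and the difference between the lists was not tested. Of 26 G1/S regulators 0 were called, 15 were negative and the median was -0.03, with the abundant Ccnd1 and Cdk4 at log2 fold changes of 0.12 and -0.05. The value farthest from 0 in the list was that of Ccnd2, at -1.37 (SE 1.36, 95% interval -4.65 to 1.91). Ccnd2 stood at 2537, 4545 and 99.8 in ATM KO and 3449, 2386 and 2428 in vector control libraries, so only ATM KO 3 lay below the controls. By edgeR and DESeq2 its log2 fold change was -0.20. Ccnd2 and the CDK inhibitor and retinoblastoma family genes of this list were picked with their values known. Cdkn1b, the CDK inhibitor p27, stood at 4712, 4185 and 7352 in ATM KO and 3333, 10457 and 10308 in vector control libraries. Cdkn1a, the CDK inhibitor p21 and a p53 target, stood at 813, 464 and 1258 in ATM KO and 247, 1208 and 1236 in vector control libraries, and the retinoblastoma relative Rbl2 at 2208, 1208 and 2626 in ATM KO and 1088, 3006 and 2931 in vector control libraries. All 3 were lowest in vector control 1 among the controls and in ATM KO 2 among the ATM KO libraries, and their log2 fold changes were -0.44, 0.12 and -0.15, none past a test. The CDK inhibitor genes Cdkn2c and Cdkn2d of the same list were lowest in the same libraries of each group. Cdkn2c had 4015, 3842 and 5019 in ATM KO and 3165, 4495 and 4631 in vector control libraries. Cdkn2d had 918, 795 and 1124 in ATM KO and 643, 1738 and 1819.7 in vector control libraries. The other retinoblastoma family genes did not share that order. Rbl1 had 3697, 4549 and 2652 in ATM KO and 4228, 3112 and 3051 in vector control libraries, in the order of most of the replication genes, and Rb1 had 615, 544 and 519.6 in ATM KO and 479.7, 842 and 821 in vector control libraries. The part of any of these genes in the library order was not tested.

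**Figure D5:**
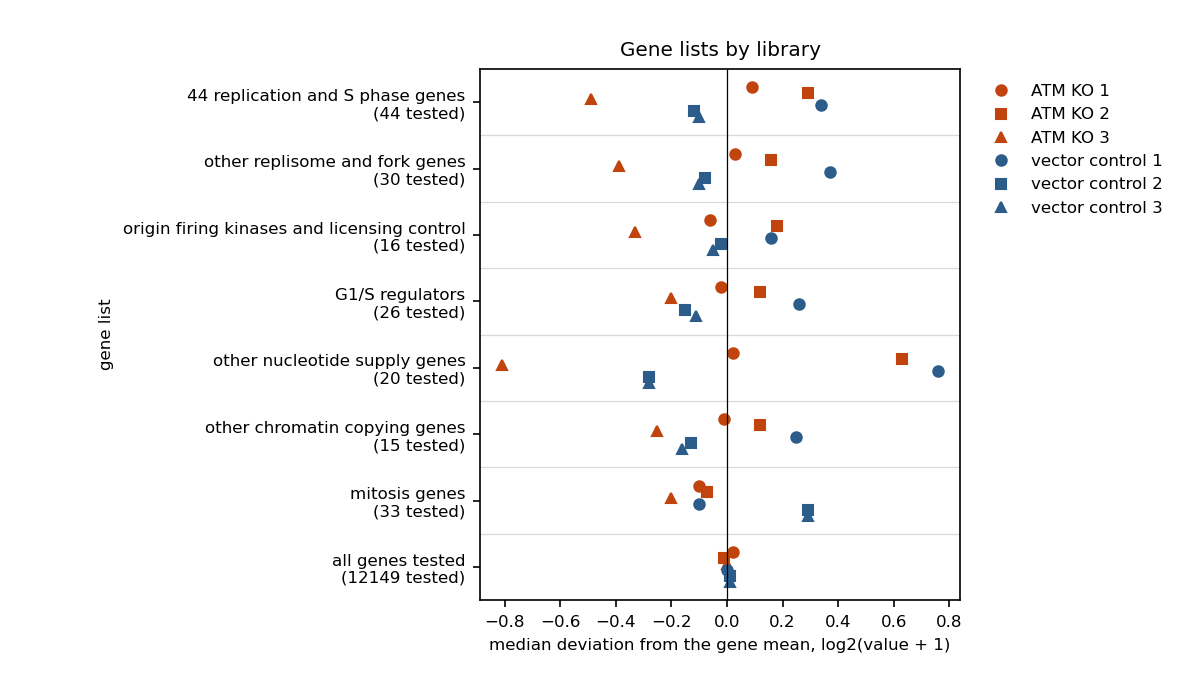
Median deviation from the gene mean (x axis, log2 scale) in each library for the 44 genes, other gene lists and all 12149 genes tested. Vector control 1 and ATM KO 2 lie to the right and ATM KO 3 to the left in each list but the mitosis genes and all genes tested. In the mitosis genes vector controls 2 and 3 stand apart at 0.29.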

How the data were processed

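RNA was sequenced from 3 ATM KO and 3 vector control libraries of 4T1 cells, grouped by their titles. Per the submitters' processing notes, STAR, HTSeq, SAMtools, DESeq2, cutadapt and Trim Galore were used, and both GRCm38 and mm9 are named, without versions or roles. What the authors deposited is a signal: reads on a gene over a factor that is constant within a library. That was read from the values, of which 100% are whole multiples of 1 step within 0.01 reads. No source used here gives the strand setting of the counting, so overlapping genes cannot be told apart. Of 13405 IDs, 13249 (98.8%) are in GENCODE M21 (GRCm38), which gave coordinates and lengths.

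The main test was limma 3.58.1 (R 4.3.3, mean-variance trend, two-sided) on log2(value + 1) over 12149 genes with a mean of at least 10, with Benjamini-Hochberg adjustment over all of them. On the recovered reads, edgeR 4.0.16 and DESeq2 1.42.0 were alternatives, calling 0 and 84 genes of the table. Scripts were tested on simulated counts. The 44 genes and the lists were chosen with earlier results of these data known. Genes given with values in every library are, per role, those with the largest change and the highest level per kb, and any without overlap. Further members and Ccnd2, Cdkn1b, Cdkn1a, Cdkn2c, Cdkn2d, Rbl2, Rbl1 and Rb1 were added after their values were seen. From each other list, those named are the genes called by any tool, otherwise the 2 without overlap that have the largest fold changes, otherwise the 2 with the highest mean.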

Additional observations from a re-analysis of the deposited data

How the results depend on the processing

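In none of the 16 alternatives was any of the 44 genes called, and 19 of them kept their direction in all 16. DESeq2 called 84 genes of the whole table where limma called 0. The samples share only their numbers: deviations of same-numbered libraries correlated at -0.02, -0.58 and 0.53, and the replicate block left 0 genes called and the median of the 44 at -0.12. Genes without overlap numbered 2 with TMM, edgeR and DESeq2 scaling, 0 with scaling to the total, 1 to 15 with 1 library left out, and 17 without vector control 1 and ATM KO 2, where 2 libraries face 2 and more genes part by construction. With 1 library left out, 16 to 40 of the 44 were negative, 16 without ATM KO 3, and the median ran from -0.26 without ATM KO 2 to 0.16 without ATM KO 3, so the sign of the median rests on single libraries. Over those 6 fits, in which an arm of 2 is assumed to vary like the other, 25 genes turned direction somewhere. The log2 fold change ran from -0.35 to 0.19 for Mcm2, -0.34 to 0.19 for Mcm3, -0.35 to 0.16 for Mcm4 and -0.38 to 0.08 for Mcm5. It ran from -0.25 to 0.46 for Orc1, -0.48 to 0.86 for Orc2, -0.17 to 0.48 for Orc6 and -0.29 to 0.56 for Cdc6. For the activation genes it ran from -0.38 to 0.09 for Cdc45, -0.37 to 0.24 for Gins1, -0.03 to 0.66 for Gins3 and -0.30 to 0.36 for Mcm10. For the fork genes it ran from -0.36 to 0.04 for Rfc3, -0.42 to 0.00 for Rfc4, -0.58 to 0.16 for Rpa1, -0.16 to 0.08 for Rpa3, -0.07 to 0.22 for Pola2, -0.38 to 0.08 for Prim1 and -0.19 to 0.48 for Fen1. For the rest it ran from -0.05 to 0.91 for Rrm2, -0.06 to 0.56 for Tyms, -0.03 to 0.34 for E2f1, -0.20 to 0.24 for Chaf1a, -0.24 to 0.39 for Chaf1b and -0.10 to 0.19 for Slbp. Other turns were near 0: with edgeR Orc1 (-0.03), Orc6 (-0.07), Mcm10 (0.00), Fen1 (-0.00) and Chaf1a (0.01), with DESeq2 Orc1 (-0.02), Orc6 (-0.06), Mcm10 (0.01) and Chaf1a (0.01), and with scaling to the total Orc2 (0.01), Mcm10 (0.00) and Rpa3 (0.03). Without vector control 1 and ATM KO 2, Orc2 stood at 0.43 and Slbp at -0.00. The cause of these turns was not tested.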
